A study of Mus musculus with 84 samples.

Results

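Genes for innate pathogen sensors and their adaptors were followed through single mouse vagal neurons that project to the airways. The set holds 10 of the 50686 genes in the deposited count table: the Toll-like receptors Tlr2, Tlr3, Tlr4 and Tlr7, the cytosolic sensors Ddx58 and Ifih1, and the signalling proteins Tmem173, Mavs, Myd88 and Ticam1. They were picked by name as host sensor and adaptor genes and read as CPM, counts scaled to a total of 1000000 per neuron. The study took 84 neurons from the vagal sensory ganglia of C57BL/6 mice that had carried the lipophilic dye DiI (2%) back from the airways, amplified the mRNA of each, and sequenced it with 76-base reads. All 84 form 1 group with no treatment in the labels. No label names an animal, an age or a ganglion, and the dye marks a neuron by where its fibre ends, not by its type.

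Toll-like receptors are membrane proteins that bind microbial products at the cell surface (Tlr2, Tlr4) or nucleic acids inside endosomes (Tlr3, Tlr7). The helicases RIG-I (Ddx58) and MDA5 (Ifih1) bind viral RNA in the cytosol and signal through Mavs on the mitochondrion, while STING (Tmem173) on the endoplasmic reticulum passes on the signal of the DNA sensor cGAS. Myd88 serves all of these Toll-like receptors except Tlr3, Ticam1 (TRIF) serves Tlr3 and Tlr4, and the pathways end in NF-kappaB and interferon regulatory factors, which turn on cytokine and interferon genes. Some members, Ddx58, Ifih1 and Myd88 among them, are themselves known to be raised by interferon in many cells. Vagal airway neurons drive cough and reflex narrowing of the airways.

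A member was counted as found in a neuron at 10 CPM or more, which was 67.3 counts in the shallowest and 207 in the deepest neuron kept. The 72 neurons with at least 5000000 counts were kept. The shallowest of them held 6732279 counts and the deepest of the 12 left out held 3892206. Shares below are of these 72 neurons, with exact (Clopper-Pearson) 95% intervals that cover counting error only. The neurons are not replicates of a treatment, so no test was run and no p-value is given. Differences between sets of neurons were called at 40 percentage points or more in the share of neurons with a gene, and each count of calls stands beside the percentage of all genes that passed the same rule.

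The genes lie at chr3:83836272-83841767 (Tlr2), chr8:45395665-45411080 (Tlr3), chr4:66827584-66930284 (Tlr4), chrX:167304929-167330558 (Tlr7), chr4:40203773-40239828 (Ddx58), chr2:62595798-62646255 (Ifih1), chr2:131234063-131248025 (Mavs), chr9:119335934-119341411 (Myd88) and chr17:56269319-56276786 (Ticam1) in the GENCODE M21 annotation of GRCm38. Exons of Myd88 overlap those of Acaa1a, a peroxisomal thiolase gene on the opposite strand, over 290 bases. Those of Tlr3 overlap the predicted gene Gm45542 over 381 bases. The strand setting used in counting is not given in the sources used here.

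RefSeq promoters (GRCm38.p6, 250 bases before to 50 after each start) matched 7 of the 10 members: Ddx58, Ifih1, Mavs, Myd88, Ticam1, Tlr2 and Tlr3. They were searched on both strands for GAAA, any 2 bases, GAAA (read as TTTC, any 2 bases, TTTC on the other strand). This is the core of the interferon-stimulated response element, searched because interferon is known to raise some members. Which of the 10 it raises in these neurons was not tested. A match was present in 3 of the 7 members and in 3.44% of all 32851 promoters of that length (3.99% of the 27025 genes they belong to). The 3 matches are printed because they fall in the 3 members that were found in the largest numbers of neurons. Capitals mark the match, each line reads 5′ to 3′ along the gene's own strand, which is the minus strand for all 3, and a match is a run of letters, not a measured binding site.
Ddx58: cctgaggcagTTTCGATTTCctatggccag
Ifih1: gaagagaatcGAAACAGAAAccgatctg
Myd88: gagcttctcgGAAAGCGAAAgaaggagggg
The windows lie at chr4:40239804-40239833 for Ddx58, chr2:62646206-62646233 for Ifih1 and chr9:119340039-119340068 for Myd88. Counting the start used in the RefSeq table as position 1, the match begins at position 3 in Ddx58, at position 33 in Ifih1 and at position -40 in Myd88. The RefSeq starts of Ddx58 and Myd88 lie inside the GENCODE spans given above, and that of Ifih1 is the end of its span. No match was present in the windows of Mavs, Ticam1, Tlr2 or Tlr3. Among 16 genes known to be induced by these pathways, 13 had a promoter in the table and 8 of those held a match: Bst2, Cxcl10, Ifit1, Ifit3, Isg15, Oas1a, Rsad2 and Stat2. A match was also present in 2 of 8 other Toll-like receptors, Tlr6 and Tlr11, which were found in 0 neurons. The counts were 1 of 9 other cytosolic sensors, 1 of 15 signalling genes, 0 of 5 cofactors and 0 of 8 transcription factors with a promoter. Whether a match goes with being found was not tested.

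The kept neurons varied widely in how many genes they showed, from 841 to 8870 genes at 10 CPM with a median of 5855.5, and this spread bears on every share below. Neuronal transcripts were present in all of them: the synaptic gene Snap25 was found in 72 of 72 neurons, and the 10 pan-neuronal genes summed to a median of 19147 CPM (range 492 to 30006). Glial RNA was common, with the satellite glia gene Fabp7 in 52 neurons. In 7 neurons (AM002, AM005, AM023, AM078, AM244, AM251 and AM287) the satellite glia genes outweighed the pan-neuronal genes. Shares of members found in them, and some of the pairs, are given with and without them. Macrophage and leukocyte genes, a well-known source of these sensors in tissue, were each scarce: 13 of 14 reached 10 CPM somewhere but none in more than 5.56% of neurons. At least 1 of these genes was found in 18 neurons. Their sum had a median of 1.49 CPM (range 0 to 562), Itgam was at 0 in every kept neuron, and Ptprc, Csf1r, Aif1 and C1qa were found in 2, 1, 2 and 2 neurons. For every member found, the median macrophage sum was higher in neurons with the member than in those without it. It was 6.58 against 0.202 CPM for Ddx58 and 6.92 against 0.296 for Myd88. It was also 7.02 CPM in the 36 neurons with at least the median number of genes and 0.155 in the rest. The part of macrophage RNA in the member values was not tested. The endothelial gene Pecam1 was found in 0 neurons and the fibroblast gene Dcn in 22.

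No member was a general feature of airway vagal neurons. Ddx58, Myd88 and Ifih1 were found in 30, 27 and 15 neurons, while the Toll-like receptors, Mavs, Tmem173 and Ticam1 were each found in 7 or fewer. No member was found in 50% or more of the neurons, a level that 34% of the 16068 genes seen in at least 1 neuron reached. The median member was found in 7.64% of neurons, against 27.8% for the median of those 16068 genes. These shares depend on the limit and on the gene-poor neurons. At 1 count or more, Myd88 was in 76.4% of neurons, Ddx58 in 73.6% and Ifih1 in 62.5%. Among the 36 neurons with at least the median number of genes, Ddx58 was found in 26 and Myd88 in 24.

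**Figure D1:**
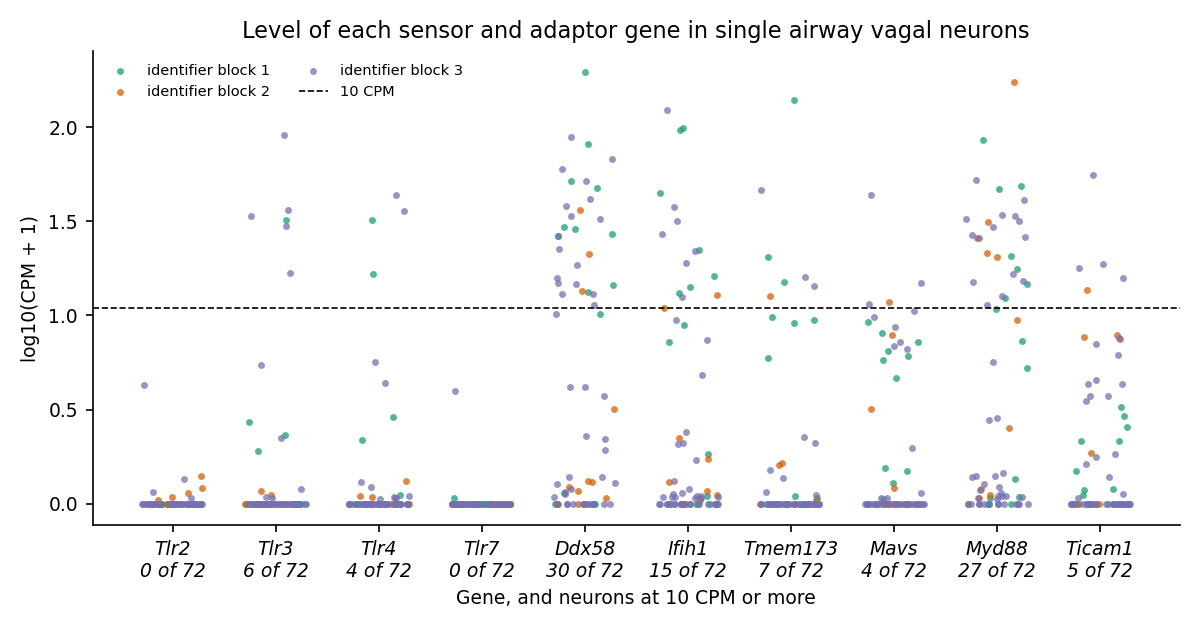
Level of each of the 10 genes in the 72 kept neurons. The vertical axis is log10(CPM + 1), each point is 1 neuron coloured by identifier block, the dashed line marks 10 CPM, and the count under each gene gives the neurons at or above it. Ddx58 has 30 neurons and Myd88 27 above the line, with no gap at the line, while Tlr2 and Tlr7 stay below it in every neuron.

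Among the Toll-like receptors, Tlr3, the endosomal sensor of double-stranded RNA, was found in 6 of 72 neurons (8.33%, 3.12 to 17.3%). Its levels in those neurons were 15.8 CPM in AM210, 28.8 in AM257, 31.3 in AM006, 32.6 in AM281, 35.4 in AM249 and 89.8 in AM223. The remaining neurons stayed at or below 4.45 CPM and 56 had no count, so Tlr3 was either well above the limit or nearly absent. None of the 6 carried the jugular marker Prdm12, and 5 of them carried the P2X receptor gene P2rx2, a nodose marker, at 96.5 to 377 CPM. However, Prdm12 was found in only 7 of the 72 neurons. Many neurons without Tlr3 also had P2rx2 at 10 CPM or more, such as AM248 at 617. Satellite glia genes summed to between 1378 and 4609 CPM in the 6 neurons, all above the median of 1355 over the kept neurons. The macrophage genes summed to a median of 13.8 CPM in the 6 (0.261 to 45.7) and 0.741 in the neurons without Tlr3. Of the 6, 3 had no macrophage gene at 10 CPM. The part of those cells in the Tlr3 values was not tested.

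Tlr4, the lipopolysaccharide receptor, was found in 4 neurons (5.56%, 1.53 to 13.6%). Its level was 42.7 CPM in AM296, 35 in AM244, 31 in AM021 and 15.7 in AM011, and at most 4.69 in the others. AM244 is among the 7 neurons rich in glial RNA: its satellite glia genes summed to 35386 CPM and its pan-neuronal genes to 492. Without those 7 neurons Tlr4 was found in 3 of 65 (4.62%). Cd14 and Ly96, which present lipopolysaccharide to Tlr4, were found in 0 of the 4 Tlr4 neurons, against 8 and 2 of the other 68. Each had at least 1 count in 2 of the 4.

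Tlr2, which binds bacterial lipopeptides, was found in 0 of 72 neurons. This allows a share for Tlr2 of up to 4.17% by a limit of 3 in 72 neurons and 4.99% by the exact interval. Its highest level was 3.29 CPM (39 counts) in AM235, and that single neuron held 68.4% of all Tlr2 counts. AM235 was 1 of the 2 neurons with at least 3 macrophage or leukocyte genes at 10 CPM, and these genes summed to 144 CPM in it. Tlr7, an endosomal sensor of single-stranded RNA, was likewise found in 0 of 72 (the same limits), with 42 of its 43 counts in AM271 at 2.99 CPM. The other 8 Toll-like receptors of the mouse (Tlr1, Tlr5, Tlr6, Tlr8, Tlr9, Tlr11, Tlr12 and Tlr13) were also found in 0 neurons, so of 12 receptors only Tlr3 and Tlr4 passed the limit anywhere.

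Cytosolic RNA sensors were found more often than the other sensors, though the adaptor Myd88 was found in more neurons than Ifih1. Ddx58 (RIG-I) was found in 30 of 72 neurons (41.7%, 30.2 to 53.9%) and had at least 1 count in 53. Within the 30, its level ran from 10.3 CPM in AM216 through a median of 27 to 88.0 in AM291 and 195 in AM023. AM023, the highest, belongs to the 7 neurons rich in glial RNA, and without those 7 Ddx58 was found in 29 of 65 (44.6%). Among all genes seen, 40.5% were found in at least as many neurons.

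Ifih1 (MDA5) was found in 15 neurons (20.8%, 12.2 to 32%). It lay at 11.6 to 43.9 CPM in 12 of them and stood apart in AM018 (95.7 CPM), AM023 (98.2) and AM273 (122). Without the 7 neurons rich in glial RNA, AM023 among them, it was found in 14 of 65 (21.5%). Of the 15 neurons, 13 also had Ddx58 (86.7%, 59.5 to 98.3%), against 17 of the other 57, and without those 7 the counts were 12 of 14 and 17 of 51. Most of the Ifih1 neurons showed many genes, and among the 36 neurons with at least the median number of genes, called gene-rich here, Ddx58 was found in 12 of 14 with Ifih1 and 14 of 22 without. Dhx58 (LGP2), the remaining RIG-I-like helicase, was found in 4 neurons (5.56%).

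Tmem173 (STING), on chromosome 18, was found in 7 neurons (9.72%, 4.0 to 19%). Levels were 11.6 CPM in AM069, 13.3 in AM296, 14.1 in AM011, 15 in AM237, 19.4 in AM013, 45.5 in AM281 and 139 in AM021. The last of these held 53.7% of all Tmem173 counts. All 7 were gene-rich, with at least 8091 genes each. The gene for cGAS, the DNA sensor upstream of STING (listed as Mb21d1), was found in 0 of 72 neurons and reached at most 4.31 CPM.

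Among the adaptors, Myd88 was found in 27 of 72 neurons (37.5%, 26.4 to 49.7%) and had at least 1 count in 55. Levels within the 27 ran from 10.4 CPM in AM221 through a median of 25.2 to 51.2 in AM271, 84.9 in AM021 and 172 in AM086. Without the 7 neurons rich in glial RNA it was found in 26 of 65 (40%). The overlapping gene Acaa1a was found in 23 of the 27 Myd88 neurons and 15 of the other 45, and in gene-rich neurons in 22 of 24 and 8 of 12. Without the strand setting, reads from the shared 290 bases cannot be assigned to one gene or the other. Gm45542, which overlaps Tlr3, had no counts in any kept neuron.

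Mavs, the adaptor of both RNA helicases, was found in only 4 neurons (5.56%): AM219 at 42.9 CPM, AM235 at 13.8, AM070 at 10.7 and AM253 at 10.5. Another 12 neurons lay between 5 and 10 CPM, more than for any other member, and its share was 22.2% at 5 CPM. Ticam1 was found in 5 neurons (6.94%, 2.29 to 15.5%), at 54.9 CPM in AM299, 17.7 in AM210, 16.8 in AM300, 14.8 in AM304 and 12.7 in AM070. It had at least 1 count in 33 neurons, so low counts were widespread.

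Per kilobase of exon, which puts genes of different length on 1 scale, the median level in neurons where a member was found was highest for Myd88 (9.77 CPM per kb), followed by Tlr3 (6.14), Tlr4 (5.94), Ticam1 (5.62), Tmem173 (5.47), Ddx58 (3.82), Mavs (3.67) and Ifih1 (2.61). These are levels within the neurons chosen by the 10 CPM limit, and the ranges of all 8 genes overlapped. Ddx58 was found in more neurons than any other member and at a lower level per kb than Tlr3, which was found in 6. A limit in CPM is a lower floor per kb for a longer gene, so this order partly follows exon length. Exons cover 7050 bases in Ddx58 and 8165 in Ifih1, against 5207 in Tlr3 and 2576 in Myd88. Before division by length, the median was 27 CPM for Ddx58 and 32 for Tlr3.

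Gene-rich neurons held more members than gene-poor ones, and a large part of all genes was likewise found more often in them. No member was found in 30 neurons, 1 in 14, 2 in 10, 3 in 11, 4 in 4 and 5 in 3. Those with 5 were AM021 (Tlr4, Ddx58, Ifih1, Tmem173, Myd88), AM210 (Tlr3, Ddx58, Ifih1, Myd88, Ticam1) and AM281 (Tlr3, Ddx58, Ifih1, Tmem173, Myd88). The median was 2.5 members in gene-rich neurons and 0 in the 36 gene-poor ones, with no member in 4 and 26 of them. Ddx58 was found in 26 of 36 gene-rich and 4 of 36 gene-poor neurons (61.1 points higher) and Myd88 in 24 and 3 (58.3 points higher). Ifih1 was found in 14 and 1, and Tmem173 in 7 and 0. These 2 calls among 10 members stand beside 37.5% of all 16068 genes called higher in gene-rich neurons and 0.0747% lower, so the members were not called more often than genes at large. Both calls were lost when levels were rescaled by the trimmed mean of M-values, which also redrew the gene-rich and gene-poor sets. Across the 72 neurons, levels followed the number of genes to different degrees, with Spearman's rho of 0.74 for Ddx58, 0.71 for Ticam1, 0.68 for Myd88, 0.63 for Mavs, 0.48 for Ifih1 and 0.47 for Tmem173 but 0.27 for Tlr4 and 0.22 for Tlr3. These are descriptions over single cells that share the total as denominator.

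**Figure D2:**
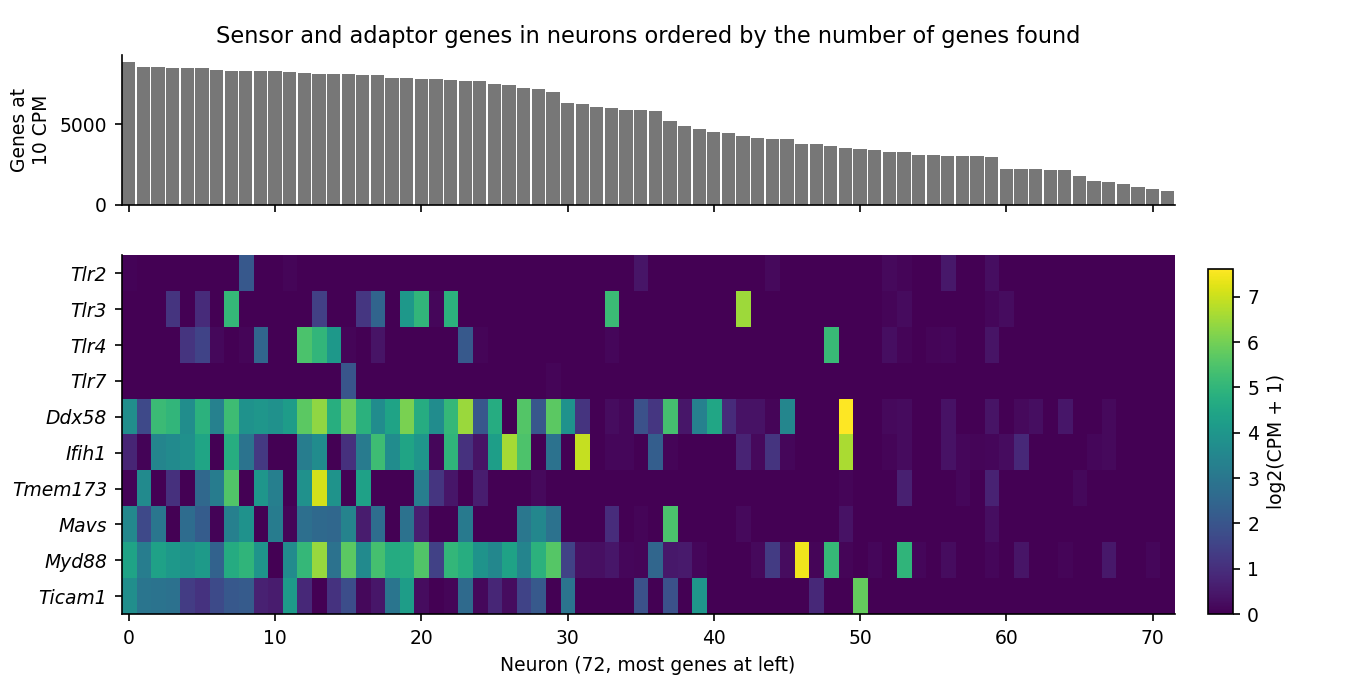
The 10 genes in the 72 neurons ordered by the number of genes found. The upper panel gives genes at 10 CPM or more per neuron (841 to 8870), and the lower panel gives log2(CPM + 1) of each member as colour. Ddx58 and Myd88 fill most columns at the left, where 36 gene-rich neurons lie, and a few isolated bright cells lie at the right, among them Ddx58 at 195 CPM in AM023 and Myd88 at 172 CPM in AM086.

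Sensors were paired with their adaptors in few neurons at this limit. Mavs was found in 3 of the 32 neurons with Ddx58 or Ifih1 (9.38%, 1.98 to 25%) and in 1 of the 40 without, although 21 of the 32 had at least 1 Mavs count. At 5 CPM the share was 15 of 34 (44.1%). Ticam1 was found in 1 of the 6 Tlr3 neurons and 4 of the other 66. Myd88 was found in 3 of the 4 Tlr4 neurons and 24 of the other 68, and all 4 had a Myd88 count. Without the neurons rich in glial RNA these were 2 of 3 and 24 of 62. Ticam1, the other adaptor of Tlr4, was found in 0 of those 4. The intervals of the shares over 4 and 6 neurons cover most of the scale.

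Some pairs that are not sensor and adaptor were more frequent. Ddx58 and Myd88 were found together in 21 neurons, which is 70% of the 30 Ddx58 neurons (50.6 to 85.3%), against 6 of the 42 without Ddx58 (21 of 29 and 5 of 36 without the neurons rich in glial RNA). Within gene-rich neurons Myd88 was found in 21 of 26 with Ddx58 and 3 of 10 without. That difference of 50.8 points stands beside 3.15% of 14586 genes called higher and 0.144% lower in the Ddx58 neurons, and the Ddx58 neurons still had more genes (median 8120.5 against 6735.5). In the same comparison the RNA-activated kinase gene Eif2ak2 was found in 19 of 26 and 2 of 10, and Traf6, a ubiquitin ligase downstream of Myd88, in 16 of 26 and 2 of 10. Ifih1 was found in 4 of the 6 Tlr3 neurons (66.7%, 22.3 to 95.7%) and 11 of the other 66, and in gene-rich neurons in 4 of 5 and 10 of 31. These sets were chosen after their values were seen.

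Signalling genes downstream of the sensors were found in more neurons than the median gene, and transcription factor genes in fewer. Of 18 signalling genes, 17 were found in at least 1 neuron and 7 in 50% or more, with a median share of 38.2% against 27.8% for all genes seen. The most frequent were Tab2 (50 neurons), Irak1 (46) and Traf3 (44), which link receptors to kinases, and Tbk1, the kinase shared by the RNA, DNA and Ticam1 pathways, was found in 42 (58.3%). All 10 transcription factor genes were found somewhere, with a median share of 19.4% and 2 of them in 50% or more of neurons. The most frequent were Nfkbia, the NF-kappaB inhibitor (49 neurons), Rela (39) and Irf1 (30). Irf3, which Tbk1 activates, was found in 28 (38.9%).

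Cofactors and other sensors were less even. Of 10 Toll-like receptor cofactors 7 were found, led by the chaperone Hsp90b1 (58 neurons), Sarm1 (36), an NAD-cleaving enzyme known for its role in axon loss, and Cnpy3 (23), which helps fold the receptors. The first of these also folds many other proteins. Tirap, which bridges Tlr2 and Tlr4 to Myd88, was found in 10, and Unc93b1, which carries endosomal receptors to their site, in 1. Of 12 other cytosolic sensors and helpers 8 were found: Trim25, which activates RIG-I, in 41 neurons, Eif2ak2 in 29 and Casp1 in 13, while Nlrp3 had no counts.

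Genes known to be induced by these pathways were present but unevenly so. Of 16, 15 were found in at least 1 neuron, among them Stat2 in 41 neurons and Ifit1 in 32, and their median share was 12.5%. Interferon beta itself (Ifnb1) had no counts in any kept neuron, and Isg15 was found in 4. Cytokine genes ranged from Ccl2 in 22 neurons and Il6 in 11 to Tnf in 1.

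**Figure D3:**
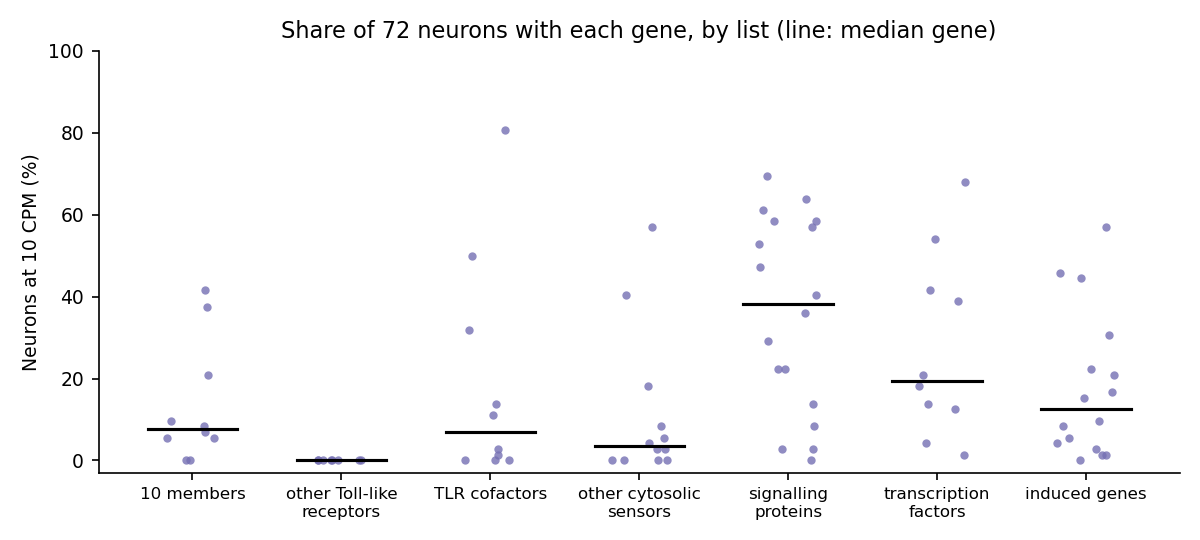
Share of the 72 neurons at 10 CPM or more for each gene of 7 lists. Each point is 1 gene and the black line is the list's median, which is 7.64% for the 10 members, 0 for the other Toll-like receptors, and 38.2% for the 18 signalling proteins. Values stand beside a median of 27.8% for all genes seen in at least 1 neuron.

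Jugular-type neurons, which express the transcription factor Prdm12, were compared with the others, and the STING gene was the 1 member of 10 past the rule, a share no higher than that of all genes. With Prdm12, 4 of 7 neurons had Tmem173 (57.1%, 18.4 to 90.1%), and without it 3 of 65 did (4.62%, 0.962 to 12.9%), which is a difference of 52.5 points. Its levels in the 7 were 0 CPM in AM304, 0.514 in AM303, 1.26 in AM228, 13.3 in AM296, 14.1 in AM011, 15 in AM237 and 19.4 in AM013. The sets overlapped, since the 2 highest levels of all, in AM021 and AM281, were in neurons without Prdm12 but with P2rx2 (80.4 and 255 CPM). That call stands beside 13.3% of 16068 genes higher and 0.361% lower. Prdm12 neurons also showed more genes (median 8091 against 4870).

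Restricting the comparison to gene-rich neurons, 6 with Prdm12 and 30 without, lowered that background to 3.33% higher and 1.9% lower of 14586 genes. Tmem173 was then found in 4 of 6 and 3 of 30 (56.7 points higher), and Ifih1 in 0 of 6 and 14 of 30 (46.7 points lower). For Ifih1, 2 of the 6 lay just under the limit, AM013 at 7.90 CPM and AM296 at 8.44, and the other 4 at or below 1.40. Ddx58 was found in 5 of 6 and 21 of 30, and Myd88 in 4 of 6 and 20 of 30, so neither was called. Satellite glia genes also moved with this split: their sum had a median of 384 CPM in the 6 and 601 in the 30, and 6 of the 7 genes were less frequent in the 6. Their part in the Ifih1 difference was not tested.

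By identifier block, the counts with Tmem173 were 2 of 2 with Prdm12 and 1 of 14 without in block 1, and 2 of 5 and 1 of 40 in block 3. Block 2 held no Prdm12 neuron. No member was past 40 points without block 1. None was at 1 count or more, at 50 CPM, or when levels were rescaled by the trimmed mean of M-values. Those other limits and the rescaling also redrew the Prdm12 set, so its neurons can differ from these 7. The Tmem173 call, 4 of 7 against 3 of 65, rests on few neurons. With a rule of 30 points in place of 40, Ddx58 (5 of 7 against 25 of 65) was called as well, beside 25.6% of genes higher and 0.716% lower. Of the other pathway genes, 1 of 10 cofactors, 0 of 12 other cytosolic sensors, 4 of 18 signalling genes, 1 of 10 transcription factors and 2 of 16 induced genes were called higher and none lower. They included Cnpy3 (6 of 7 against 17 of 65), Ikbkb (7 of 7 against 27 of 65), Irf3 (6 of 7 against 22 of 65), Tab3 (6 of 7 against 23 of 65), Map3k7 (7 of 7 against 35 of 65), Irak1 (7 of 7 against 39 of 65) and Ccl2 (5 of 7 against 17 of 65). Within gene-rich neurons, Cnpy3 was found in 6 of 6 and 12 of 30 and was called again, while Tank was called higher (4 of 6 and 5 of 30) and Trim25 lower (3 of 6 and 28 of 30).

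At 10 CPM, Myd88 was more frequent in neurons with Trpv1, the capsaicin receptor of nociceptors, than in the rest. Myd88 was found in 14 of 19 Trpv1 neurons (73.7%, 48.8 to 90.9%) and 13 of 53 others (24.5%, 13.8 to 38.3%), a difference of 49.2 points. In the 19 its level ran from 0 CPM in AM083 through a median of 24.9 to 172 in AM086, and in the 53 from 0 through a median of 0.196 to 45.7 in AM006. The sets overlapped, but the 4 highest values were all in Trpv1 neurons: AM020 at 47.8 CPM, AM271 at 51.2, AM021 at 84.9 and AM086. Myd88 was the 1 member called, beside 0.697% of 16068 genes higher and 0.0124% lower. The call ended at 1 count or more, where Ddx58 and Ifih1 were past 40 points instead, and at 50 CPM, where no member was. Both limits also redrew the Trpv1 set itself, so they do not compare the same 19 and 53 neurons. No gene of the other pathway lists was called at 10 CPM.

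Trpv1 neurons also showed more genes (median 7541 against 4500). Within gene-rich neurons, Myd88 was found in 12 of 13 with Trpv1 and 12 of 23 without, a difference of 40.1 points that only just met the rule, beside 0.932% of 14586 genes higher and 0.83% lower. By block the counts were 3 of 3 and 4 of 13, 3 of 4 and 2 of 7, and 8 of 12 and 7 of 33. Satellite glia sums were alike in medians over all neurons, 1378 CPM with Trpv1 and 1332 without, but in gene-rich neurons they were 1378 and 401. Ddx58 was found in 12 of 19 and 18 of 53 (29.2 points higher) and Tlr3 in 3 of 19 and 3 of 53, neither past the rule.

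**Figure D4:**
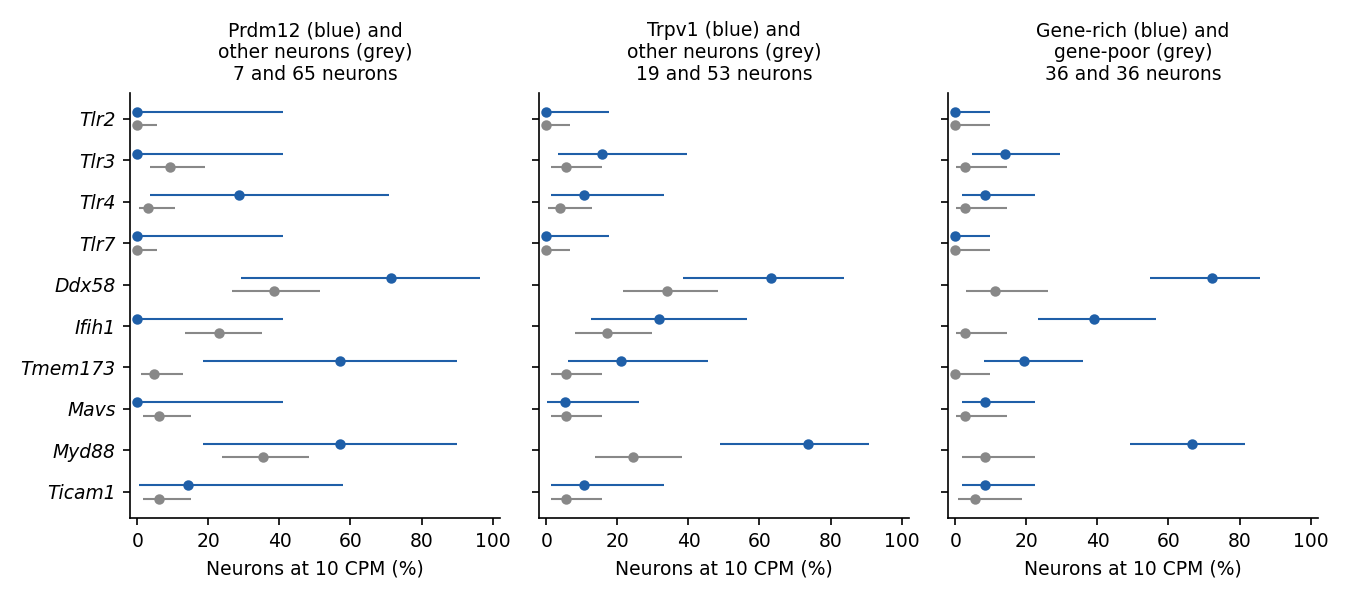
Share of neurons with each member at 10 CPM or more in 3 splits of the 72 neurons: with Prdm12 (7) and without (65), with Trpv1 (19) and without (53), and gene-rich (36) and gene-poor (36). Points are shares in percent and lines are exact 95% intervals, blue for the first set and grey for the second. Tmem173 is the member past 40 points on the left, Myd88 in the middle, and Ddx58 and Myd88 on the right.

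Interferon-induced genes were compared between gene-rich neurons with Ifih1 (14) and without (22), a split chosen after its values were seen, because these sets showed similar numbers of genes (median 7894.5 and 8104.5). Ifit1, which binds foreign RNA and is a strongly induced gene, was found in 12 of 14 (85.7%, 57.2 to 98.2%) and 9 of 22 (40.9%, 20.7 to 63.6%), 44.8 points higher. It was the 1 gene called among 16 induced genes, beside 0.542% of 14586 genes higher and 0.281% lower. Cxcl10 was found in 7 and 5 neurons and Stat2 in 14 and 19, while Rsad2 was found in 3 and 9, so the list did not move as 1 group: 9 genes were more frequent with Ifih1, 5 less, and the median difference was 5.19 points against 0 for all genes. Satellite glia genes moved with the same split, with a median sum of 1646 CPM (113 to 9793) against 270 (39 to 4663) and 6 of 7 genes more frequent. The macrophage genes had medians of 6.12 and 7.51 CPM. The part of glial RNA in the Ifit1 difference was not tested.

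**Figure D5:**
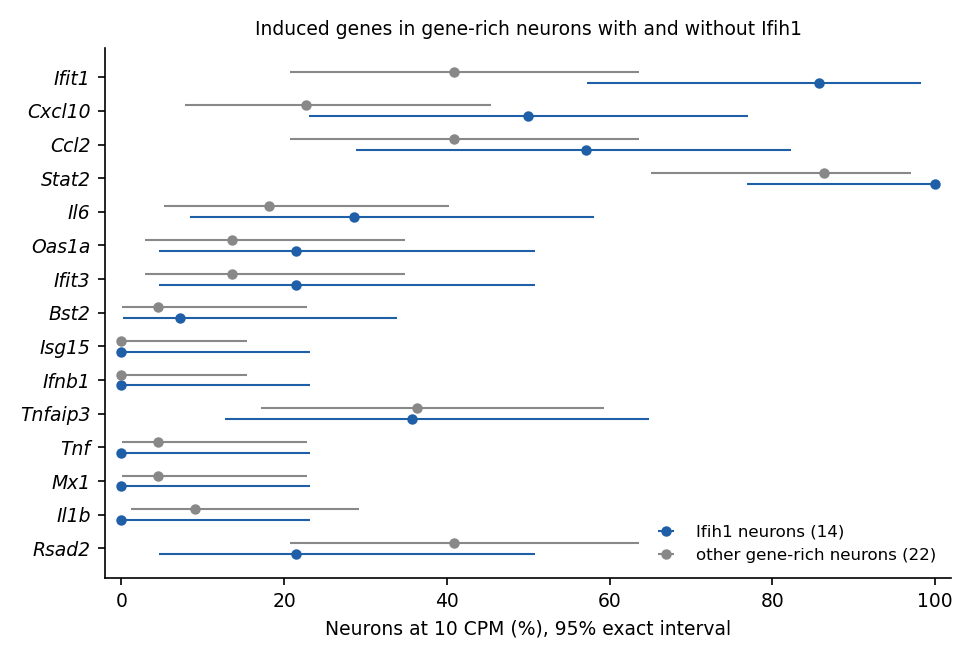
Share of neurons with each of 15 of the 16 genes induced by the pathways, in gene-rich neurons with Ifih1 (blue, 14 neurons) and without (grey, 22 neurons). Points are shares at 10 CPM or more and lines are exact 95% intervals. Ifit1, at 85.7% and 40.9%, is the one gene past 40 points, and Rsad2 lies furthest the other way.

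Identifiers of the neurons run in 3 blocks, which the labels do not call batches. Of 16, 11 and 45 kept neurons, Ddx58 was found in 10, 3 and 17, Myd88 in 7, 5 and 15, Ifih1 in 7, 1 and 7, Tmem173 in 3, 1 and 3, and Tlr3 in 1, 0 and 5. The blocks also differed in the median number of genes (7639.5, 3793 and 5231). Each block held gene-rich and gene-poor neurons: Ddx58 was found in 9 of 11 gene-rich and 1 of 5 gene-poor neurons of block 1, 3 of 4 and 0 of 7 in block 2, and 14 of 21 and 3 of 24 in block 3. For Myd88 these were 7 of 11 and 0 of 5, 3 of 4 and 2 of 7, and 14 of 21 and 1 of 24.

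Genes with the most similar pattern were ranked by Spearman's rho over the 72 neurons among 9914 genes found in at least 10 of them. Closest to Ddx58 were Decr2, Nckipsd and Limk1 (rho 0.76, 0.74 and 0.74, against 0.45 for the median gene), and in the 36 gene-rich neurons these values were 0.55, 0.63 and 0.33. Closest to Myd88 were Mrpl38, Hdac4 and Strn4 (0.74, 0.73 and 0.73, against a median of 0.41), with 0.40, 0.47 and 0.65 in gene-rich neurons. For Ifih1, added after the data were seen, they were the class I antigen-presentation gene H2-K1, Fam126a and the interferon-induced factor Irf1 (0.71, 0.70 and 0.68, against a median of 0.30), with 0.59, 0.55 and 0.42. Between members the values were highest for Ddx58 with Mavs (0.67), Myd88 (0.60) and Ifih1 (0.56). In gene-rich neurons Ddx58 had 0.61 with Myd88 as well as 0.43 with Mavs and 0.34 with Ifih1.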

How the data were processed

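The deposited values are raw read counts per gene and neuron, made with featureCounts per the submitters' processing notes. The sources used here give no aligner, build, annotation or strand setting. They mention no molecular identifiers, so copies made in amplification count repeatedly. The authors' counts were scaled here to CPM of each neuron's total, which ranged from 6732279 to 20668832 in the 72 kept neurons (median 12860293) and from 576966 to 3892206 in the 12 left out. Identifiers were matched to GENCODE M21 symbols for 50376 of 50686 genes. The members, the gene lists and the splits by Prdm12, Trpv1 and number of genes were chosen with earlier results of these data known. Splits by Ddx58 and Ifih1 were added after seeing the data.

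All members are named. In each pathway list the 3 genes with the highest share are named, with up to 3 that differ most, by 40 points or more, between Prdm12 or Trpv1 neurons and the others. Other genes named were chosen after their values were seen, except the defining markers of other cell types. Values of 3 genes that this rule would name are not reported here. For members found in 18 or more neurons, the 3 genes with the highest rho are named. Alternatives covered the limit, the neurons kept, thinning to 6732279 counts, the size rule, leaving out each block, and trimmed mean of M-values (TMM) scaling by edgeR 4.0.16 in R 4.3.3, with no edgeR test. The calculation of share differences was tested on simulated neurons under a random split. All of those neurons had the same expected profile, unlike the neurons here. Python 3.11.15, numpy 2.4.6, pandas 2.3.3, scipy 1.17.1 and matplotlib 3.10.9 were used.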

Additional observations from a re-analysis of the deposited data

Results flagged for a closer look

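The 12 neurons left out for low depth also held members. Their highest levels were 67.3 CPM of Tlr3 and 342 CPM of Ifih1 in the same neuron, AM255, 108 CPM of Ddx58 in AM224 and 267 CPM of Myd88 in AM226. Each was the only left-out neuron with that member at 10 CPM. The Ifih1 and Myd88 levels lay above those of every kept neuron, and they rest on 772 and 327 counts.

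Among the 7 Prdm12 neurons, 1 neuron stood far from the other 6 for 2 of the 8 members compared: Tlr3 at 1.32 CPM in AM013 and Ticam1 at 14.8 CPM in AM304. The cut-off is set so that chance marks about 1 in 20 groups of normally distributed values. Its rate for these values, many of them low, was not measured. The Tlr3 level is below the limit of 10 CPM.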

How the results depend on the processing

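Over 18 results and 14 alternatives, 182 of 235 values stayed within the spread allowed for the main value and 53 moved. None moved when all 84 neurons were used, when counts were thinned, or without block 2. None moved without the 2 neurons with macrophage genes or the 7 rich in glial RNA, the latter an alternative chosen after seeing the data. Leaving out so few neurons could hardly move a share past its interval, so the part of RNA from other cells was not tested by it. At 50 CPM no Tlr4 neuron was left to pair with Myd88, and gene-rich neurons alone give no gene-rich split. Where the limit or the scaling changed, the Prdm12, Trpv1 and gene-rich sets were redrawn by it. Their neurons can therefore differ from those of the main splits. No paired analysis was possible because the labels define 1 group and no pairs.

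At 1 count or more instead of 10 CPM, shares were 12.5% for Tlr2, 22.2% for Tlr3, 26.4% for Tlr4, 73.6% for Ddx58, 62.5% for Ifih1, 38.9% for Mavs, 30.6% for Tmem173, 76.4% for Myd88 and 45.8% for Ticam1. The median was then 4 members per neuron and 3 members were in 50% or more of neurons. Mavs was in 48.3% of neurons with Ddx58 or Ifih1. Members past 40 points numbered 0 for Prdm12, 2 for Trpv1 (Ddx58 and Ifih1) and 4 for gene-rich neurons. At 5 CPM, Mavs was in 22.2% of neurons and in 44.1% of those with Ddx58 or Ifih1, and Myd88 was in 100% of the 4 Tlr4 neurons. At 50 CPM, shares were 1.39% for Tlr3, Tmem173 and Ticam1, 0 for Tlr4 and Mavs, 9.72% for Ddx58, and 4.17% for Ifih1 and Myd88. The median number of members, Mavs in Ddx58 or Ifih1 neurons, Ticam1 in Tlr3 neurons, and members past 40 points in each of the 3 splits were all 0 there.

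TMM factors ran from 0.0611 to 2.14 with a median of 1.33 (0.41 on the log2 scale), and were higher in gene-rich (median 1.90) than gene-poor neurons (0.619), so gene-rich levels came out lower. Under TMM, Ddx58 was in 29.2% of neurons, Myd88 in 25% and Mavs in 1.39%, the median was 0 members per neuron, Ticam1 was in 0 of 5 Tlr3 neurons, and Myd88 was in 100% of the 3 Tlr4 neurons. No member was past 40 points (0) for Prdm12 or for gene-rich neurons. Myd88 stayed past 40 points for Trpv1.

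In gene-rich neurons alone, Ddx58 was in 72.2%, Myd88 in 66.7%, Ifih1 in 38.9% and Tmem173 in 19.4%, with a median of 2.5 members, 2 members in 50% or more of neurons, and 2 past 40 points for Prdm12 (Ifih1 lower, Tmem173 higher). With 10000000 or more counts, Ticam1 was in 0 of 4 Tlr3 neurons, and without block 3 in 0 of 1. Without block 1, Myd88 was in 100% of 2 Tlr4 neurons and 0 members were past 40 points for Prdm12. Without block 3 there were 3 (Tlr4, Ddx58, Tmem173), from 2 Prdm12 neurons, and at a rule of 30 points there were 2 (Ddx58, Tmem173). The cause of these shifts was not tested.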
